A study of Mus musculus with 8 samples.

Results

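The neutrophil granule genes described here are 10 genes chosen by name: Elane, Mpo, Ngp, Camp, Ltf, Lcn2, S100a8, S100a9, Csf3r and Retnlg. All 10 are among the 24786 gene symbols counted, and all 10 passed the filter on low counts that left 15254 genes. They were read in 8 RNA libraries of macrophages taken from the livers of C57BL/6 mice. The libraries form 4 groups of 2. TG groups are Kupffer cells, or monocyte-derived macrophages (MoM), of dnTGFβRII mice, and WT groups are the same 2 cell types of wild-type mice. The dnTGFβRII transgene encodes a dominant-negative form of the type II TGF-β receptor. In the known line of that name it is driven in T cells, and those mice develop inflamed bile ducts. WT animals carry no transgene. The labels used here state neither age nor sex nor how many animals stand behind each library, so p-values measure only the spread between these libraries, which may be technical.

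Neutrophils build their granules in steps while they mature in the bone marrow. Primary (azurophil) granules are filled first, at the promyelocyte stage, with proteases and peroxidase such as the products of Elane and Mpo. Secondary (specific) granules follow at the myelocyte stage with lactoferrin (Ltf), cathelicidin (Camp), neutrophilic granule protein (Ngp) and lipocalin 2 (Lcn2). S100a8 and S100a9 encode the paired calcium-binding proteins that fill the neutrophil cytosol and that monocytes also make. Csf3r encodes the receptor for the growth factor G-CSF, carried by neutrophils and by some monocytes and macrophages, and Retnlg encodes a resistin-like secreted protein of late neutrophils.

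Libraries held 26190194 to 30308132 counts, and 1 count was worth 0.0309 to 0.0378 CPM (CPM being counts relative to the library's TMM-scaled total). The 5 Kupffer cell markers summed to 12350 to 24890 CPM in the Kupffer libraries and to 117 to 433 CPM in 3 MoM libraries, but to 7482 CPM in MoM WT replicate 1. The 5 endothelial markers summed to 420 to 1370 CPM in 6 libraries, but to 5005 CPM in Kupffer TG replicate 2 and 3164 CPM in MoM WT replicate 1. Tgfbr2, the mouse gene of the type II TGF-β receptor, stood at 174 to 349 CPM in all libraries. Whether reads of the transgene were counted under it cannot be told from gene counts. In bulk RNA of this kind, fewer cells of a type and less RNA per cell cannot be told apart.

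A single library, MoM TG replicate 2, carried most of the granule transcripts. There the 10 genes took 0.421% of all counts, against 0.0123% to 0.0663% in the other 7 libraries. It was the highest library for 9 of the 10 genes, the exception being Retnlg, which was highest in MoM WT replicate 2. The lowest level lay in a WT Kupffer library for 9 of the 10, the exception being Csf3r. The plot of the 10 genes by library shows both the isolated top value and the spread below it. That library was picked out with these results known, so its distance from the others is a description and carries no test.

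**Figure D1:**
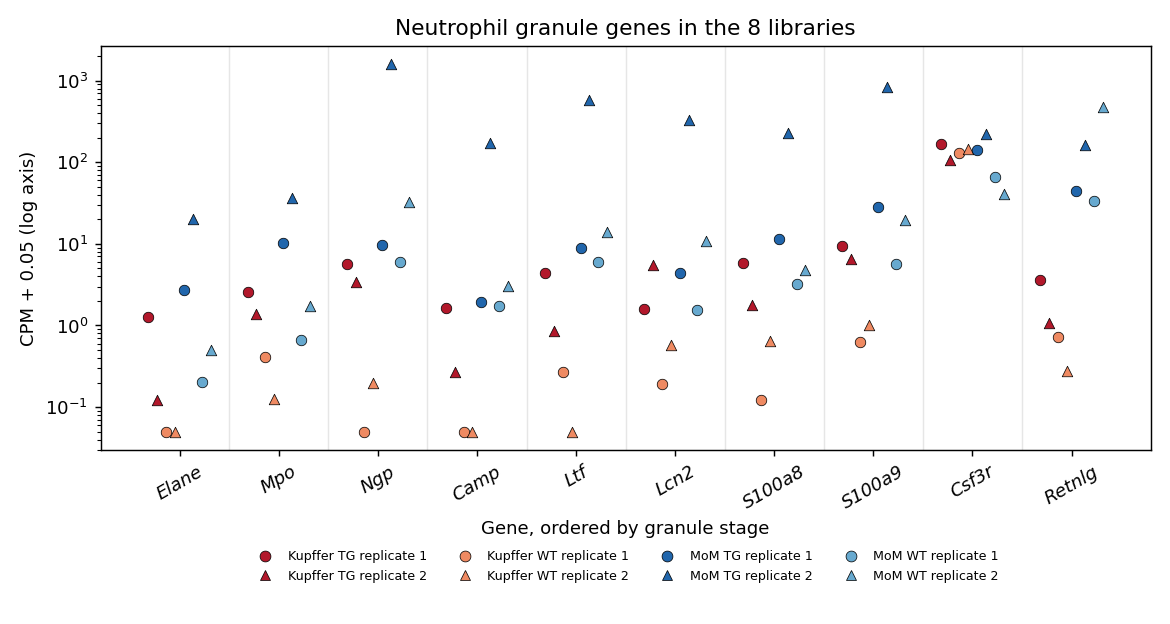
CPM of each of the 10 genes in each of the 8 libraries, on a log axis after adding 0.05 CPM so that libraries without a count can be drawn. Colours mark the 4 groups, circles replicate 1 and triangles replicate 2. MoM TG replicate 2 stands above all other libraries for the 4 secondary granule genes, at 170 to 1584 CPM, while Csf3r spans only 40.8 to 221 CPM.

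The 4 secondary granule genes had the highest ratios of MoM TG replicate 2 to the next highest library. Ngp, a cathelicidin-like protein of specific granules (chromosome 9, 110419747 to 110423012, GRCm38), stood at 1584 CPM in MoM TG replicate 2 and 9.64 CPM in MoM TG replicate 1. It had 5.93 and 32.1 CPM in the MoM WT libraries, 5.67 and 3.32 CPM in Kupffer TG, and 0 and 0.149 CPM in Kupffer WT. The WT Kupffer libraries were thus lowest, and the 2 TG MoM libraries differed 164-fold. Against the next highest library, MoM WT replicate 2, the ratio was 49.4 (95% counting interval 45.2 to 54.1). These intervals were computed on counts divided by 2, because 65.0% to 68.0% of counts from 1 to 19 were even, as when both mates of a fragment are counted, and they cover counting error only.

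Ltf, the iron-binding lactoferrin (chromosome 9, 111019271 to 111042767), followed the same order with 584 CPM in MoM TG replicate 2, 8.73 CPM in replicate 1, and 5.96 and 13.8 CPM in MoM WT. Its Kupffer values were 4.31 and 0.811 CPM in TG and 0.216 and 0 CPM in WT. Camp, the precursor of the antimicrobial peptide CRAMP (chromosome 9, 109847379 to 109849617), had 170 CPM in MoM TG replicate 2 and 1.67 to 2.99 CPM in the other MoM libraries. In Kupffer cells Camp had 1.59 and 0.221 CPM in TG and no count in either WT library. There 3 counts would be 0.108 and 0.112 CPM. For both genes the TG Kupffer libraries lay above the WT Kupffer libraries and below all 4 MoM libraries. For Camp the gap to MoM was narrow, with 42 counts in Kupffer TG replicate 1 and 54 in MoM WT replicate 1.

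Lcn2, a siderophore-binding protein that inflamed hepatocytes and epithelia also make (chromosome 2, 32384633 to 32388252), stood at 330 CPM in MoM TG replicate 2 and at 1.48 to 10.8 CPM in the other MoM libraries. It departed from the other 3 secondary genes in the Kupffer TG pair, where replicate 2 was the higher one with 5.46 CPM against 1.55 CPM in replicate 1. Ngp, Ltf and Camp were each higher in replicate 1. Per kilobase of exon, Lcn2 stood at 0.127 of Ngp in Kupffer TG replicate 1 (95% counting interval 0.0718 to 0.206) and at 0.766 in replicate 2 (0.522 to 1.14). The 5 hepatocyte markers, led by albumin, summed to 735 CPM in that replicate 2 and 6.96 CPM in replicate 1, and the 5 cholangiocyte markers, led by Spp1, to 49.7 and 2.08 CPM. The part of these cells in the Lcn2 level was not tested.

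Camp, Ngp and Ltf share a stretch of chromosome 9. Camp and Ngp lie 570.0 kb apart with 8 protein-coding genes between them, and Ngp and Ltf 596 kb apart with 20 between. The promoters of Ngp and Ltf are shown because both genes were at their highest in MoM TG replicate 2 and hold the same 8 letters, which match the core motif of C/EBP factors, the regulators of the myelocyte stage. Sequences are from RefSeq on GRCm38.p6 and run from 250 bases before the RefSeq start to the base before the GENCODE start, on the gene's own strand. Capitals mark the match to TTGCNNAA or, on the other strand, TTNNGCAA.
Ngp promoter, chr9:110419558-110419746, plus strand: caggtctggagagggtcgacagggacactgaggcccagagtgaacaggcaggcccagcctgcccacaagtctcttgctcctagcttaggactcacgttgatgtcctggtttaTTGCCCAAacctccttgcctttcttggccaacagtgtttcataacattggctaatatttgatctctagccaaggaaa
Ltf promoter, chr9:111019042-111019270, plus strand: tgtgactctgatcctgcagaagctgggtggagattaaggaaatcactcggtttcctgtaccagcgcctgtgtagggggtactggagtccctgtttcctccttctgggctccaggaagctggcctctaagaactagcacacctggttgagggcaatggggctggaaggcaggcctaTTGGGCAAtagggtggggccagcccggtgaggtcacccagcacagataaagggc

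The match in Ngp reads TTGCCCAA and that in Ltf TTGGGCAA, which are the same letters read on opposite strands. They begin 138 and 75 bases before the RefSeq start. Over the 250 bases before the start, these exact letters occur on either strand in 0.709% of 32851 mouse promoters. The wider C/EBP motif occurs in 9.56% of promoters and in 5 of the 10 genes: Ngp, Ltf, Lcn2, S100a9 and Retnlg. The PU.1 core GAGGAA, which reads TTCCTC on the opposite strand, occurs in 23.3% of promoters and in 6 of the 10: Elane, Mpo, Ltf, Lcn2, S100a8 and Csf3r. The C/EBP match of Lcn2 and the PU.1 matches of Lcn2 and Csf3r do not lie wholly before the GENCODE start. The 8 letters are themselves a case of the C/EBP motif, and Ngp holds them a second time 11 bases before the RefSeq start, inside the gene as GENCODE draws it. In Ltf and Lcn2, which hold both motifs, the C/EBP and PU.1 letters do not overlap. Such a match is a description of letters and not evidence of binding, and the exact 8 letters were picked after the sequences were read.

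Primary granule genes were less abundant per length in MoM TG replicate 2, at 20.2 CPM per kilobase of exon for Elane and 10.7 for Mpo, against 126 to 1296 for the 4 secondary genes. Elane, neutrophil elastase (chromosome 10, 79886247 to 79888215, GRCm38), had 19.9 CPM there, 2.64 CPM in MoM TG replicate 1, and 0.154 and 0.450 CPM in MoM WT. Its Kupffer values were 1.21 and 0.0737 CPM in TG, the latter from 2 counts, and 0 in both WT libraries. Mpo, myeloperoxidase (chromosome 11, 87793581 to 87804413), had 36.5 and 10.1 CPM in the MoM TG libraries with the higher value in replicate 2. It had 0.618 and 1.71 CPM in MoM WT, 2.495 and 1.33 CPM in Kupffer TG, and 0.359 and 0.0747 CPM in Kupffer WT. In contrast to the secondary genes, the second highest library for both was MoM TG replicate 1, so that both TG MoM libraries lay above every other library.

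The ratio of MoM TG replicate 2 to the next highest library differed between the stages, but that library was not the same one: it was MoM WT replicate 2 for the secondary genes and MoM TG replicate 1 for Elane, Mpo and the S100 pair. It was 30.6 to 56.8 for the 4 secondary genes, with intervals from 26.2 to 78.7, and 20.3 to 29.5 for S100a8 and S100a9, with intervals from 17.1 to 32.7. It was 7.55 (5.29 to 11.03) for Elane and 3.62 (2.99 to 4.41) for Mpo. Over 1 common library, MoM WT replicate 2, Elane stood 44.2-fold and Mpo 21.4-fold higher, so Elane lay within the 30.6-fold to 56.8-fold range of the secondary genes. Over MoM TG replicate 1 the secondary genes stood 66.9-fold to 164-fold higher, above both primary genes. For Elane the distance from the secondary genes was thus seen over MoM TG replicate 1 and not over MoM WT replicate 2.

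**Figure D2:**
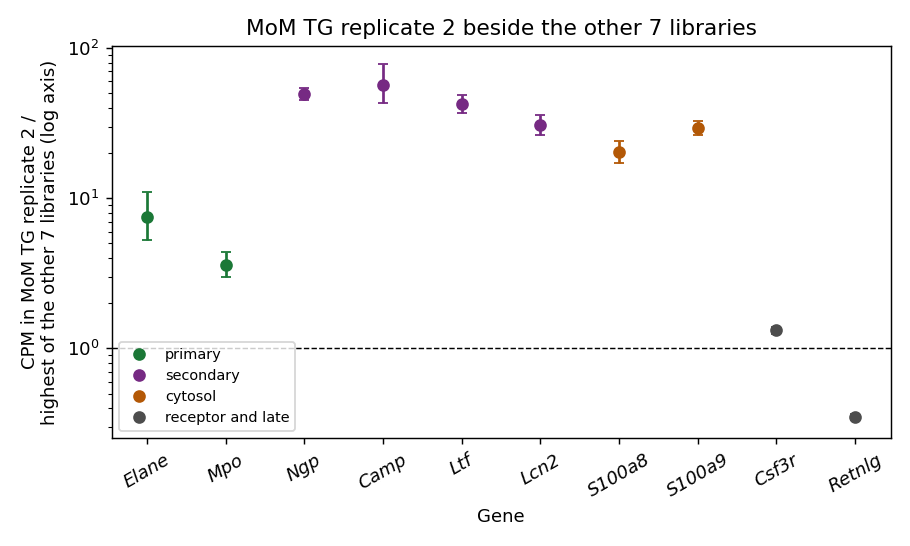
CPM in MoM TG replicate 2 divided by the highest CPM among the other 7 libraries, on a log axis, for each gene coloured by stage, with 95% counting intervals on counts divided by 2. The dashed line marks a ratio of 1. That library is MoM WT replicate 2 for the secondary genes and Retnlg, Kupffer TG replicate 1 for Csf3r and MoM TG replicate 1 for the others. Secondary genes lie at 30.6 to 56.8, the primary genes Elane and Mpo at 7.55 and 3.62, and Retnlg below 1 at 0.347.

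The balance between the stages was also read within each library. Elane and Mpo made up 2.07% of the counts of the 6 granule protein genes in MoM TG replicate 2 (95% Wilson interval 1.93% to 2.22%) and 34.1% in MoM TG replicate 1 (30.1% to 38.4%). They made up 4.88% (2.70% to 8.01%) and 3.49% (2.55% to 4.91%) in the MoM WT libraries. The TG MoM pair therefore held the lowest and the highest share of the 4 MoM libraries, beyond counting error. In Kupffer TG the share was 22.0% (17.1% to 28.0%) and 12.5% (8.15% to 18.7%). In Kupffer WT replicate 1 it rested on 10 primary and 10 secondary counts (interval 23.7% to 76.3%) and in replicate 2 on 2 and 18 counts (1.79% to 40.4%). A share of counts is not corrected for gene length, but the same genes were counted in every library, so shares compare between libraries.

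**Figure D3:**
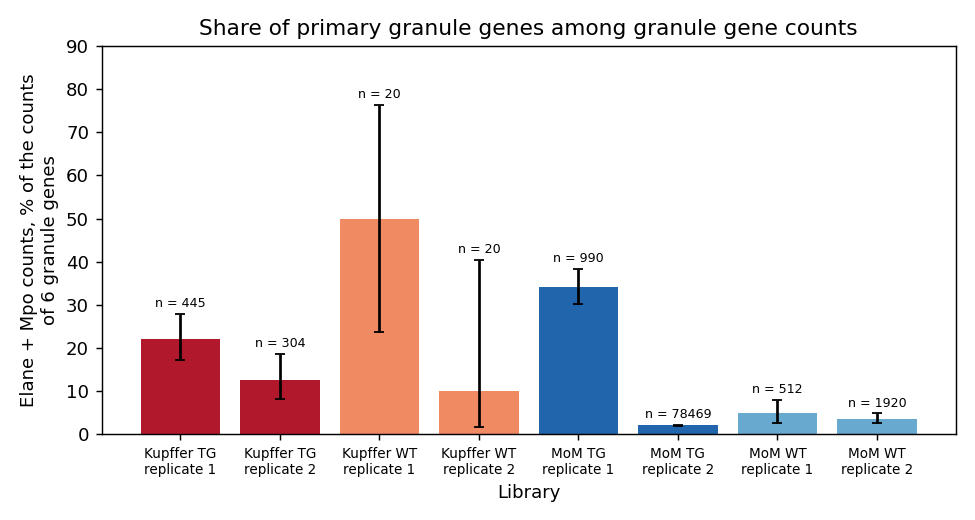
Counts of Elane and Mpo as a percentage of the counts of Elane, Mpo, Ngp, Camp, Ltf and Lcn2 in each library, with 95% Wilson intervals on counts divided by 2 and the total count above each bar. MoM TG replicate 1 reaches 34.1% and MoM TG replicate 2 only 2.07%.

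Per kilobase of exon, Mpo stood at 0.374 of Ngp (0.291 to 0.480) in MoM TG replicate 1 and at 0.00822 of Ngp (0.00754 to 0.00897) in replicate 2. The MoM WT libraries had 0.0372 and 0.0190, and the Kupffer TG libraries 0.157 and 0.143. Elane stood at 0.340 of Ngp (0.227 to 0.497) in MoM TG replicate 1 and at 0.0156 (0.0138 to 0.0175) in replicate 2. For Elane the MoM WT values of 0.0323 (0.00309 to 0.0960) and 0.0174 (0.00698 to 0.0362) overlapped that of MoM TG replicate 2. Other primary granule genes followed in part. Prtn3, proteinase 3, which lies next to Elane on chromosome 10 on the side away from Cfd, stood at 20.6 CPM in MoM TG replicate 2 and at most 2.16 CPM elsewhere. Ms4a3 of early granulocyte precursors was highest in that library too, but Ctsg, cathepsin G, was highest in MoM TG replicate 1 and Prss57 in neither TG MoM library.

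S100a8 and S100a9 lie 22.6 kb apart on chromosome 3 with no protein-coding gene between them. S100a9 (90692632 to 90695721, GRCm38) stood at 842 CPM in MoM TG replicate 2, 28.6 CPM in MoM TG replicate 1, and 5.59 and 19.5 CPM in MoM WT. In Kupffer cells it had 9.41 and 6.49 CPM in TG against 0.575 and 0.971 CPM in WT, with no overlap. S100a8 (90668978 to 90670035) stood at 228 and 11.3 CPM in TG MoM with replicate 2 the higher, and 3.18 and 4.70 CPM in WT MoM. Its Kupffer values were 5.82 and 1.73 CPM in TG and 0.0718 and 0.597 CPM in WT. Both genes placed the TG MoM libraries first and second. Per kilobase, S100a9 exceeded S100a8 in all 8 libraries, by 2.15-fold to 10.6-fold, and in MoM TG replicate 2 by 4.91-fold (95% counting interval 4.73 to 5.11). The value of 10.6 in Kupffer WT replicate 1 rests on 2 counts of S100a8, and in Kupffer WT replicate 2 the interval of 0.83 to 6.01 includes equal levels.

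Csf3r, the G-CSF receptor (chromosome 4, 126024550 to 126044440, GRCm38), behaved unlike the granule protein genes. It stood at 139 and 221 CPM in MoM TG, 65.0 and 40.8 CPM in MoM WT, 167 and 106 CPM in Kupffer TG and 128 and 145 CPM in Kupffer WT. The MoM WT libraries were the lowest 2 of the 8, and the Kupffer and MoM TG libraries overlapped. MoM TG replicate 2 exceeded the next library only 1.32-fold (1.25 to 1.40). Per kilobase, Csf3r stood at 32.3 and 21.5 times S100a9 in WT Kupffer cells and at 0.0379 of S100a9 in MoM TG replicate 2.

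Retnlg (chromosome 16, 48872621 to 48874496) had its highest value in a WT library. It stood at 33.8 and 471 CPM in MoM WT, 43.8 and 163 CPM in MoM TG, 3.59 and 1.03 CPM in Kupffer TG and 0.682 and 0.224 CPM in Kupffer WT. All 4 MoM libraries lay above all 4 Kupffer libraries, and the genotypes overlapped within MoM. Per kilobase, Retnlg exceeded Ngp 9.35-fold (7.71 to 11.4) in MoM TG replicate 1, and 11.7-fold (9.44 to 14.7) and 30.3-fold (27.7 to 33.2) in the MoM WT libraries. In MoM TG replicate 2 it stood at 0.213 of Ngp (0.204 to 0.222). In this order of secondary to late genes, MoM TG replicate 2 was alone among the MoM libraries.

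**Figure D4:**
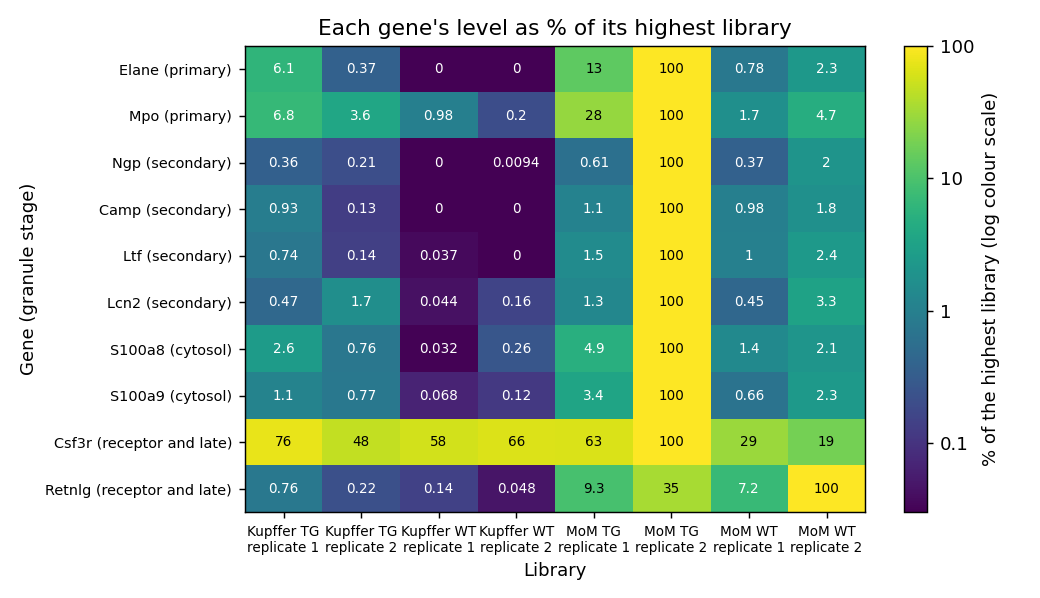
Level of each gene in each library as a percentage of its highest library, from CPM, on a log colour scale, with the percentage printed in each cell. The column of MoM TG replicate 2 holds the highest value of 9 genes, and the Csf3r row, 40.8 to 221 CPM, is the most even.

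The genes outside the 10 that set MoM TG replicate 2 apart were few. Of 15254 genes, 0.197% (30 genes) stood at least 4-fold above the highest of the other 7 libraries on CPM + 0.5, and 7 of those were among the 10: Ngp, Camp, Ltf, Lcn2, S100a8, S100a9 and Elane. Of the 23 others, 5 came from the list of further secondary granule genes. These were Chil3, a chitinase-like protein (1003 CPM against at most 13.3 CPM elsewhere), Cd177, a neutrophil surface protein (136 against 3.95 CPM), Mmp8, neutrophil collagenase (88.7 against 4.29 CPM), and Fcnb and Itgb2l (19.7 and 20.3 CPM against at most 0.377 and 0.772 CPM). Only Pglyrp1 of that list was higher in MoM TG replicate 1. Classical monocyte genes stood in the same group of 30: Ly6c2 at 517 CPM against at most 43.8 CPM, F13a1 at 238 against 14.6 CPM and Vcan at 211 against 8.77 CPM. The part of monocytes and of neutrophil precursors in these levels was not tested.

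Few markers of later neutrophils stood 4-fold apart in the same way. The 6 gelatinase granule and late neutrophil genes summed to 132 CPM in MoM TG replicate 2 and 174 CPM in MoM WT replicate 2. Mmp9, gelatinase B, and Mmp25 made up most of these sums and were highest in MoM WT replicate 2. Mmp9 also stood at 43.5 and 41.0 CPM in Kupffer WT. The other 4 genes, at 0.555 to 11.3 CPM, were highest in MoM TG replicate 2. Wfdc21 alone of the 6 passed 4-fold. Of 7 neutrophil surface receptors 5 were highest in MoM TG replicate 2, but only Ly6g, at 3.78 CPM, exceeded the other libraries 4-fold, and it did not pass the filter on low counts. Cxcr2, the chemokine receptor of mature neutrophils, had 18.1 CPM there against 6.17 CPM in MoM TG replicate 1. Fpr1 and Fpr2, formyl peptide receptors, were well represented in Kupffer libraries (69.2 to 175 CPM). The granulocyte regulator Cebpe stood at 8.16 CPM in MoM TG replicate 2 and 5.18 CPM in MoM WT replicate 2, while Cebpa, Spi1 and Runx1, which macrophages use, were each highest in another library. Of 6 granule protease inhibitors, 4 were highest in MoM TG replicate 2 and none passed 4-fold, Slpi having 57.7 against 33.0 CPM. Among those 4, Stfa1 (0.104 CPM) and Stfa2 (0.208 CPM) did not pass the filter on low counts. Cell cycle markers summed to 561.5 CPM against 440 CPM in MoM TG replicate 1 and 479 CPM in MoM WT replicate 2. No erythroid gene and no marker of hepatocytes, cholangiocytes, endothelium, lymphocytes or Kupffer cells was highest there. Of 4 progenitor genes 1 was, Kit, at 181 against 179 CPM in MoM TG replicate 1. Of 6 eosinophil, basophil and mast cell genes 4 were highest there, Prg2 having 12.6 against 6.78 CPM in MoM TG replicate 1. Among those 4, Cpa3 and Prg3 lay close to their levels in MoM WT replicate 2, Prg3 at 0.972 against 0.837 CPM. Mcpt8 and Ms4a2 were highest in MoM TG replicate 1, Mcpt8 having 40.8 CPM there against 17.7 CPM in MoM TG replicate 2. The list summed to 68.2 CPM in MoM TG replicate 1 and 54.8 CPM in MoM TG replicate 2.

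The subset comparison over both genotypes set 4 MoM against 4 Kupffer libraries. Of the granule genes 6 were higher in MoM, by edgeR's quasi-likelihood test with Benjamini-Hochberg adjustment over all genes: Retnlg (log2 fold change 7.29 ± 1.17 SE, adjusted p = 0.0158), Ngp (7.70 ± 1.78, 0.0333), Ltf (6.65 ± 1.56, 0.0338), S100a9 (4.90 ± 1.10, 0.0305), S100a8 (4.27 ± 1.10, 0.0430) and Mpo (2.997 ± 0.69, 0.0329). That is 6 of 10, beside 10.6% of all genes called higher in MoM. Camp (7.81 ± 2.06, adjusted p = 0.0552), Lcn2 (4.88 ± 1.46, 0.0633), Elane (5.12 ± 1.4995, 0.0699) and Csf3r (-0.48 ± 0.26, 0.228) did not pass. The median over the 10 was 5.01, against 0.09 over all genes. All 4 MoM libraries lay above all 4 Kupffer libraries for Ngp, Camp, Ltf and Retnlg, 4 of 10, as they did for 14.8% of all genes. Between Kupffer TG replicate 1 and MoM WT replicate 1 the gap was narrow for Camp (1.59 and 1.67 CPM) and Ngp (5.67 and 5.93 CPM).

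The calls depended on single libraries. Without MoM TG replicate 2, S100a9 (2.93 ± 0.52, adjusted p = 0.0489) and Retnlg (6.67 ± 1.15, 0.0466) were called, and Ngp had a log2 fold change of 4.51 ± 0.94 (0.0588). These 2 calls stand beside 4.38% of all genes called. The count was 1 without Kupffer TG replicate 1 (11.4% of all genes) or MoM WT replicate 2 (7.55%), 3 without Kupffer TG replicate 2 (28.1%) and 0 without Kupffer WT replicate 1 (0.952%) or 2 (0.526%). Over all genes the calls in either direction numbered 2845 with every library, 84 without Kupffer WT replicate 2 and 4458 without Kupffer TG replicate 2. Without both libraries rich in endothelial RNA it was 4, namely S100a9, Mpo, Retnlg and, lower in MoM, Csf3r, a share near the 31.7% of all genes called in that fit.

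**Figure D5:**
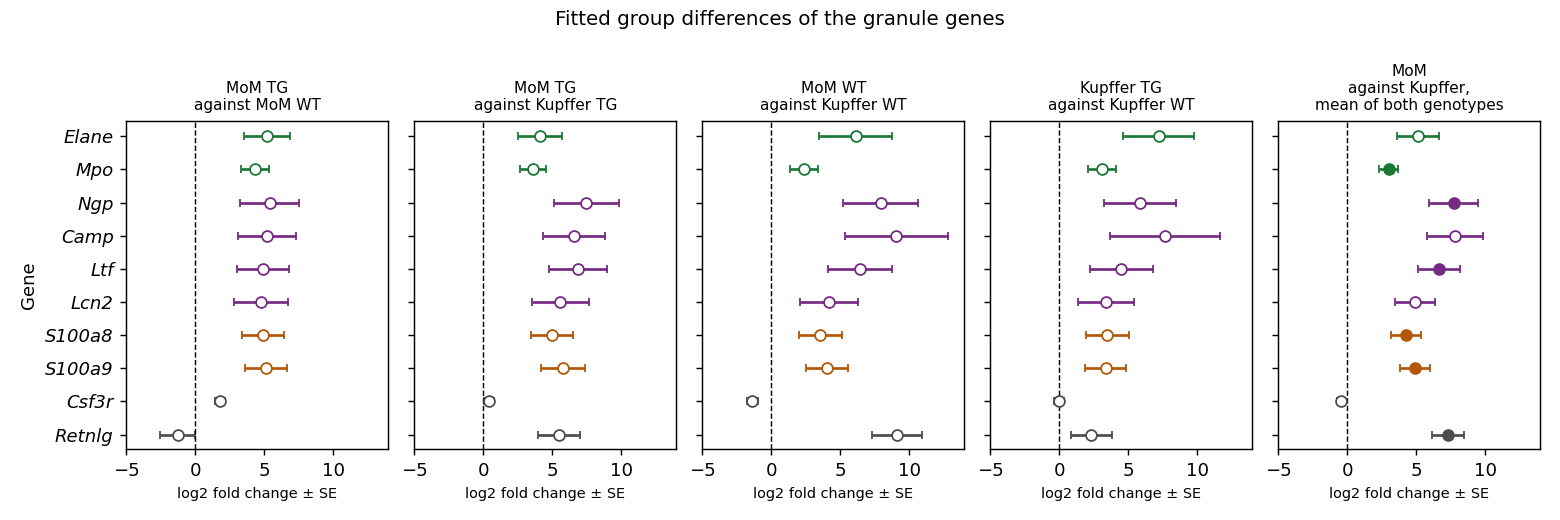
Fitted log2 fold changes with SE of the 10 genes in 5 comparisons from edgeR, filled where the adjusted p is below 0.05. The filled points, 6 of 10, all lie in the comparison of MoM with Kupffer cells over both genotypes. Camp and Elane had no count in Kupffer WT, so their fitted values against that group depend on the prior count.

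Within single genotypes 9 of the 10 genes again had higher fitted levels in MoM, without a call, while Csf3r had a positive value in TG (0.40 ± 0.36) and a negative one in WT. In TG mice the 10 genes had a median log2 fold change of 5.53 for MoM against Kupffer cells (-0.04 over all genes). None was called, beside 2.5% of all genes, although 9 of 10 had an unadjusted p below 0.05 (25.4% of all genes) and DESeq2 called 9 (18.1% of all genes). Both TG MoM libraries lay above both TG Kupffer libraries for 8 of 10 (29.1% of all genes), the exceptions being Lcn2 and Csf3r. In WT mice the median was 5.16, or 4.10 with Camp and Elane set against a floor of 3 counts over the WT Kupffer pair. None was called, beside 1.17% of all genes, with 5 at an unadjusted p below 0.05 (25.4% of all genes) and 9 called by DESeq2 (19.7% of all genes). Among those called by DESeq2, Csf3r was lower in MoM, with an edgeR log2 fold change of -1.37 ± 0.37 (adjusted p = 0.108). Fitted on the 4 WT libraries alone, edgeR called 6 of 10, beside 10.9% of all genes, with Retnlg at 0.0396. Csf3r, 1 of the 6, was lower in MoM (-1.44 ± 0.28, adjusted p = 0.0414). With 1 library left out, the log2 fold change of Retnlg ran from 4.24 to 6.59 in TG and from 6.20 to 10.1 in WT. That of Csf3r in WT ran from -1.75 to -1.07. In WT, 9 of 10 lay higher in both MoM libraries (38.5% of all genes). Against that floor of 3 counts, Camp stood 42.2-fold and Elane 5.45-fold higher in WT MoM. The floor uses counts not divided by 2, and the MoM levels carry no interval here, so these are not strict lower bounds.

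TG against WT within MoM turned on MoM TG replicate 2. No gene of the 10 and 0% of all genes were called by edgeR, while 7 of the 10 had an unadjusted p below 0.05 (6.47% of all genes) and DESeq2 called 4 (0.889% of all genes): S100a8, S100a9, Mpo and Csf3r. The median log2 fold change of the 10 was 4.92 (-0.04 over all genes). Without MoM TG replicate 2 the secondary genes turned negative, Ngp to -0.97 ± 1.34, Lcn2 to -0.51 ± 1.44, Camp to -0.30 ± 1.39 and Ltf to -0.17 ± 1.47. S100a8 went from 4.92 ± 1.54 to 1.52 ± 1.16 and S100a9 from 5.12 ± 1.54 to 1.19 ± 0.77. Mpo kept 3.12 ± 1.05 of its 4.32 ± 1.00, Elane 3.11 ± 1.78 of 5.20 ± 1.69, and Csf3r 1.40 ± 0.40 of 1.77 ± 0.37. For 5 of 10 genes the TG pair did not overlap the WT pair and stood higher, Elane, Mpo, S100a8, S100a9 and Csf3r (19.2% of all genes). Retnlg was lower on average in TG (-1.29 ± 1.25) and turned to 1.62 without MoM WT replicate 2.

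In Kupffer cells the granule genes stood at low levels, higher in TG than in WT. Both TG libraries exceeded both WT libraries for 9 of the 10 genes, all but Csf3r, as they did for 16.7% of all genes. No gene of the 10 and 0% of all genes were called by edgeR, and DESeq2 on 8 libraries called none of the 10, beside 1.68% of all genes. In edgeR 2 of the 10 (Mpo and Elane) had an unadjusted p below 0.05 (5.94% of all genes). The median log2 fold change was 3.44 (0.03 over all genes). It was the same with Camp and Elane set at 16.3-fold and 11.6-fold over the floor of 3 counts, which are not strict lower bounds. S100a9 had 3.36 ± 1.496 (adjusted p = 0.731), Mpo 3.11 ± 1.01 (0.731) and Csf3r -0.00 ± 0.36 (adjusted p of 1). The authors' deposited table for TG against WT names no cell type, but its mean counts match the 4 Kupffer libraries within 1% for 179 of its 179 genes and the MoM libraries for 0. Of the 10 it lists S100a9, with a log2 fold change of 3.38 ± 0.65 (adjusted p = 6.55e-05), and Ngp, with 5.94 ± 1.31 (adjusted p = 0.00113), both from the authors' deposited table. The same authors' deposited table holds Chil3 (8.60 ± 1.98, adjusted p = 0.00234) and, lower in TG, Mmp9 (-1.45 ± 0.34, adjusted p = 0.00261).

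Levels of other cells' markers differed between the Kupffer groups too. Kupffer TG replicate 1, the higher TG library for 9 of the 10 genes, had endothelial markers at 640 CPM (613 and 932 CPM in WT), lymphocyte markers at 14.8 CPM (6.07 and 12.8 CPM in WT) and hepatocyte markers at 6.96 CPM (45.8 and 380 CPM in WT). Kupffer TG replicate 2 had 5005, 97.6 and 735 CPM. Leaving out either TG library kept a positive fitted log2 fold change for the 9 genes other than Csf3r, from 1.14 to 10.05 over all single libraries left out. The 10.05 belonged to Ngp, which had 0 counts in Kupffer WT replicate 1 and 4 in replicate 2. Without that replicate 2 no count is left in the group, and the fitted value depends on the prior count. Classical monocyte genes summed to 385 and 228 CPM in TG and 185 and 145 CPM in WT Kupffer cells. Their part in the result was not tested.

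The difference between the TG effects of the 2 cell types (MoM less Kupffer) was called for 0 of the 10 and 0% of all genes in edgeR. There 1 of the 10, Csf3r, had an unadjusted p below 0.05 (1.77 ± 0.52, adjusted p = 0.626), beside 6.425% of all genes. DESeq2 called 0 of the 10, beside 0.334% of all genes. The other 9 differences ran from -3.62 for Retnlg to 1.76 for S100a9, with SEs of 1.35 to 4.89.

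The lists of related genes gave calls mainly in the subset comparison over both genotypes. There 10.6% of all genes were called higher and 18.7% in either direction. Called higher in MoM were 4 of 6 further secondary granule genes (Chil3, Cd177, Mmp8 and Pglyrp1), 1 of 4 further primary genes (Prss57, with 3 of the 4 tested), 2 of 6 late genes (Mmp25 and Asprv1) and, among the surface receptors, Il1r2, Trem1 and Cxcr2. Fpr1 was called lower (-3.07 ± 0.82, adjusted p = 0.0479). Pglyrp1, a peptidoglycan-recognition protein, had 5.44 ± 0.58 (adjusted p = 0.00696) and Il1r2, the interleukin 1 decoy receptor, 6.91 ± 0.70 (0.00574). Classical monocyte genes gave 4 of 6 called higher, led by Ccr2 (4.89 ± 0.37, adjusted p = 0.00351), protease inhibitors 2 of 6, of which 3 were tested (Slpi and Serpinb1a), and eosinophil, basophil and mast cell genes 3 of 6. Regulators gave 1 of 6 (Runx1) and progenitor genes 1 of 4 (Flt3). Cell cycle genes gave 4 of 5 higher and lymphocyte and cholangiocyte markers 2 of 5 each, Kupffer cell markers 4 of 5 lower, and erythroid, hepatocyte and endothelial markers no call. For TG against WT, no gene of these lists was called in either subset, where edgeR called no gene at all.

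By likeness over the 8 libraries, the genes outside the 10 closest to the mean of the 4 secondary genes were Chil3 (Pearson's r 0.985), Cd177 (0.983), Mmp8 (0.977), F13a1 (0.974) and Saa3, an acute-phase protein (0.973), among 10459 genes with at least 10 CPM in a library. With MoM TG replicate 2 left out, r for these 5 was 0.8999 to 0.960 over 7 libraries. Closest to the S100 pair were Chil3, Mmp8, Prelid1, Galns and F13a1 (0.974 to 0.978). Closest to Elane and Mpo were Galns (0.968), Samhd1, Chil1, Ms4a6c and Acsl1, most of which varied far less than the pair: Samhd1 ran from 512 to 1582 CPM. Closest to the mean of Csf3r and Retnlg were Pim1 (0.990), Ccr1, Arl5c, Gm15987 and Pdcd6. The 2 genes themselves ran against each other (r -0.383), so likeness to their mean is not likeness to each. Pim1 was highest in MoM WT replicate 2 (1949 CPM), where Csf3r was lowest (40.8 CPM). These r values share 8 libraries and the TMM scaling, describe shape and not size, and carry no test.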

How the data were processed

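Macrophage RNA was measured by RNA-seq in 8 libraries, 2 in each of 4 groups assigned from the sample labels. The authors deposited raw read counts per gene symbol for each library. Reads were aligned with STAR 2.5.2b to mm10, per the submitters' processing notes. Neither the counting tool nor its annotation and strand setting is named by the sources at hand, and most small counts are even, so counting intervals use each count divided by 2. The authors also deposited 1 table for TG against WT with mean normalized counts, log2 fold changes with standard errors, a test statistic (a score) and p-values, raw and adjusted. Its cell type was read from its mean counts.

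From the counts, CPM was computed with TMM scaling. Group differences were fitted with edgeR 4.0.16 (limma 3.58.1, R 4.3.3) by the quasi-likelihood test on all 8 libraries and the 15254 genes that passed filterByExpr, with Benjamini-Hochberg adjustment over all genes and a threshold of 0.05. There were 6 comparisons. The fit was tested on simulated data. It had 4 residual degrees of freedom and a biological coefficient of variation of 0.507. DESeq2 1.42.0, other scalings, no filter on low counts, halved counts, a replicate block, fits on the compared libraries alone and leaving out each library were alternatives. A fit without the 2 libraries rich in endothelial RNA was added after seeing the data. Levels per kilobase use the exon union of GENCODE M21, which matched 24255 of 24786 symbols, and coordinates are those of GRCm38. Figures and tables were made with Python 3.11.15, pandas 2.3.3, scipy 1.17.1 and matplotlib 3.10.9.

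The 10 genes, the 16 gene lists and the interest in MoM TG replicate 2 were chosen with earlier results of these data known. The rule for named genes was all 10, up to 3 genes with the highest CPM of each list, and the 5 genes most like each stage. Other list genes are named from counts after their values were seen. A gene of the surface receptor list is not reported here by name.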

Additional observations from a re-analysis of the deposited data

How the results depend on the processing

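The 6 calls for MoM against Kupffer cells over both genotypes became 0 to 6 with 1 library left out. They stayed within 1.5 times, at 6 with median-of-ratios size factors and halved counts and 7 without the filter. They were 9 in DESeq2 and 4 in the 6-library fit, also within 1.5 times. Over all genes, calls in either direction numbered 2845 in the main fit, 2900 with size factors and 3015 with halved counts. They numbered 2714 without the filter, 4576 in DESeq2 and 4972 in the 6-library fit. The 9 calls in DESeq2 thus stand beside more calls over all genes. The replicate block gave 4 calls (S100a9, Ngp, Lcn2 and Retnlg), beside 3171 calls over all genes. The replicate numbers share only a number in the labels. The differences of replicate 1 and 2 correlated across genes between groups at -0.07 to 0.59, so the pairing was not established. With the block the other 5 comparisons stayed at 0 calls, beside at most 1.97% of all genes. DESeq2 called 4 of the 10 for MoM TG against MoM WT (0.889% of all genes). It called 9 for MoM against Kupffer cells in TG (18.1%) and 9 in WT (19.7%). The fit on the 4 WT libraries called 6 (10.9%), of which Csf3r was lower in MoM. Signs turned for genes without a call. For MoM TG against WT the log2 fold change with 1 library left out ran from -0.97 to 7.07 for Ngp, -0.30 to 6.20 for Camp, -0.17 to 5.90 for Ltf and -0.51 to 6.82 for Lcn2, each lowest without MoM TG replicate 2, and from -2.52 to 1.62 for Retnlg, highest without MoM WT replicate 2. Csf3r for MoM against Kupffer cells in TG ran from -0.0032 to 0.73 with 1 library left out. It was -0.0036 in the 6-library fit, which left out both libraries rich in endothelial RNA. Csf3r for TG against WT in Kupffer cells, near 0, was 0.0082 with size factors, 0.0183 without the filter, 0.0082 in DESeq2, 0.00029 with halved counts, 0.027 with 4 libraries and 0.34 with 6, and ran from -0.39 to 0.34 with 1 left out. The difference of the TG effects ran from -1.97 to 2.53 for S100a8, -2.17 to 2.93 for S100a9, -6.82 to 1.23 for Ngp, -4.67 to 2.06 for Ltf, -3.89 to 3.44 for Lcn2, -4.08 to 1.00 for Elane and -0.35 to 2.13 for Mpo, and for Ltf it was -0.14 with the block and -0.91 with 6 libraries. The ratio of MoM TG replicate 2 to the next library moved to 44.3 for Ngp, 1.45 for Csf3r and 0.316 for Retnlg with library totals, to 34.5 for Camp with a pseudocount of 2 CPM and to 1.24 for Csf3r with size factors. The cause of these changes was not tested. Differences between the 2 WT Kupffer libraries were not tested. All of the 10 but Csf3r (3570 and 3872 counts) had at most 26 counts in either of them, with 1 count worth 0.0309 to 0.0378 CPM over all libraries.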
